A study of Mus musculus with 12 samples.

Results

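Abcc2 and Abcc4 encode the ATP-binding cassette pumps MRP2 and MRP4, and the liver circular RNAs (circRNAs) of these 2 genes are described here. MRP2 sits in the canalicular membrane of the hepatocyte and pumps bilirubin glucuronides, glutathione conjugates and other organic anions into bile. MRP4 sits in the basolateral membrane, pumps cyclic nucleotides and, together with glutathione, bile acids towards the blood, and is known to be raised when bile flow is blocked. A circRNA is a closed loop, made when an exon's end is joined backwards to its own start or to that of an exon before it. It is counted from reads across that back-splice junction, and it reports neither the linear mRNA nor the protein of its host gene.

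The junctions were chosen by position: each lay inside Abcc2 or Abcc4 in the GENCODE M21 annotation, with at least 1 end on an exon boundary of that gene. This gave 27 of the 16445 circRNAs listed, 16 in Abcc2 and 11 in Abcc4. Both ends lay on exon boundaries in 26 of them, and no circRNA inside either gene lacked a boundary. The position rule used no values, but this pair of genes was proposed with results of these data known, so what is said of the pair is a description. One Abcc2 circRNA, that of exons 12 to 16, had been named earlier for its difference between the groups. It stayed in the fit over all circRNAs, but no test of it is given.

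RNA came from livers of 12 mice of the strain labelled C57BL/8. The 6 PZH mice received carbon tetrachloride (CCl4), a liver toxin that causes fibrosis, together with Pien Tze Huang, here PZH, a traditional Chinese remedy given once daily at 25 mg/ml in weeks 2 to 8. The 6 Control mice received the CCl4 without PZH. In both groups CCl4 was a 10% preparation, dosed by weight at 10 µl per 10 g and injected 2 times a week for 8 weeks, after which the livers were collected in week 8. Both groups therefore carry the toxin, and livers without CCl4 were not analysed here. Whole liver was used, and fewer cells of a type cannot be told apart from less circRNA per cell.

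Values are in SRPBM, the authors' signal per back-splice junction scaled to library size. Libraries held 92559 to 129699 read-pair equivalents on junctions in PZH and 80442 to 130487 in Control, where 1 equivalent is the smallest value of a library above 0 divided by 2. Correlation between libraries was taken over log2 values of the 1089 circRNAs above 0 in all 12. It was 0.879 to 0.899 within PZH, 0.859 to 0.893 within Control and 0.844 to 0.890 between the groups. A 0 means listed at 0 and not absence, so circRNAs with any 0 get library values and no mean ± SD. Of the hepatocyte markers searched, 10 of 12 had circRNAs, at a summed level of 16.3 to 27.1 SRPBM in PZH and 26.9 to 45.8 in Control. Of the cholangiocyte markers 2 of 8 had one, at 3.88 to 12.5 SRPBM in PZH and 1.75 to 16.3 in Control, while Krt7, Krt19, Epcam, Sox9, Spp1 and Cftr had none.

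Abcc2 (ENSMUSG00000025194.5) spans 58.5 kb of chromosome 19, from 43782192 to 43840740 on the plus strand of GRCm38, and its transcript ENSMUST00000026208.5 has 32 exons. Abcc4 (ENSMUSG00000032849.14) spans 223.5 kb of chromosome 14, from 118482692 to 118706219 on the minus strand, and its transcript ENSMUST00000036554.13 has 31 exons. The median intron measures 1385 bp in Abcc2 and 2875 bp in Abcc4. Every junction with both ends on a boundary joined coding exons. Of the 27 junctions, 8 were above 0 in at least 6 libraries, 7 of Abcc2 and 1 of Abcc4, and these entered the fit.

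The back-splice sequences of these 8 are shown because the junction is what tells a circRNA from the linear mRNA and one circle from another. Each line holds 60 nucleotides in the sense of the gene, written here from GENCODE M21 transcripts (GRCm38) and not read from the libraries. The lower-case part is the end of the last exon of the circle, and the capitals are the start of its first exon.
Abcc2 exons 5 to 6, chr19:43798407-43799145 (+): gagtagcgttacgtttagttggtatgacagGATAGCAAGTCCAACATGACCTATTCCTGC
Abcc2 exons 12 to 16, chr19:43810471-43814814 (+): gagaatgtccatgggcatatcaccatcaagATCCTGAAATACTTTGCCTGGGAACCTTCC
Abcc2 exons 12 to 18, chr19:43810471-43818181 (+): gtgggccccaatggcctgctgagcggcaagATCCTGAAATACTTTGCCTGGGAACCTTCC
Abcc2 exons 17 to 18, chr19:43816797-43818181 (+): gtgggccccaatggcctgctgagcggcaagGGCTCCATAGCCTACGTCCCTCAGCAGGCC
Abcc2 exons 17 to 24, chr19:43816797-43825990 (+): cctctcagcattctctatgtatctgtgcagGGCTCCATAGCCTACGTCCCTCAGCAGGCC
Abcc2 exons 28 to 30, chr19:43830411-43834031 (+): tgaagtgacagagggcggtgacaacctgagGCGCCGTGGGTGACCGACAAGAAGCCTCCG
Abcc2 exons 3 to 9, chr19:43796452-43805113 (+): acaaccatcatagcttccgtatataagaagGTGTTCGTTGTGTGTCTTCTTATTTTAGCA
Abcc4 exons 2 to 4, chr14:118654150-118669107 (-): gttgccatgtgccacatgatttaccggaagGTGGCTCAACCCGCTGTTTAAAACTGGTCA
The Abcc2 circles of exons 12 to 16 and of exons 12 to 18 share the capitals, because both open at the start of exon 12, and differ only in the exon end joined to it. The circles of exons 12 to 18 and of exons 17 to 18 share the lower-case part, the end of exon 18. The circles of exons 17 to 18 and 17 to 24 share the start of exon 17.

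The junctions re-used a few exon ends. In Abcc2 the start of exon 12 was used by 3 junctions, the start of exon 3 by 3 and the end of exon 18 by 3. In Abcc4 the start of exon 2 was used by 4 junctions, among them the one with a single annotated end, which runs from 118643034 to 118669107. The flanking introns of the leading circles differed in length between the genes. The Abcc2 circle of exons 5 and 6 has an intron of 211 bp before it and one of 1391 bp after it. The Abcc4 circle of exons 2 to 4 has introns of 36928 bp and 21962 bp, which rank 2 and 3 of the 30 introns of its transcript. The 3 Abcc2 circles that open at exon 3, of exons 3 to 7, 3 to 8 and 3 to 9, follow the longest of that transcript's 31 introns, with 12095 bp.

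Exonic length also separated the circles. The Abcc2 circles of exons 12 to 16, 12 to 18, 17 to 18, 17 to 24 and 3 to 9 hold 564, 909, 345, 1320 and 999 exonic nucleotides, all multiples of 3. The Abcc2 circles of exons 5 to 6 and 28 to 30 hold 164 and 470, and the Abcc4 circle of exons 2 to 4 holds 457, none of which is a multiple of 3. Whether introns between these exons were kept in a circle is not measured by its junction.

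**Figure D1:**
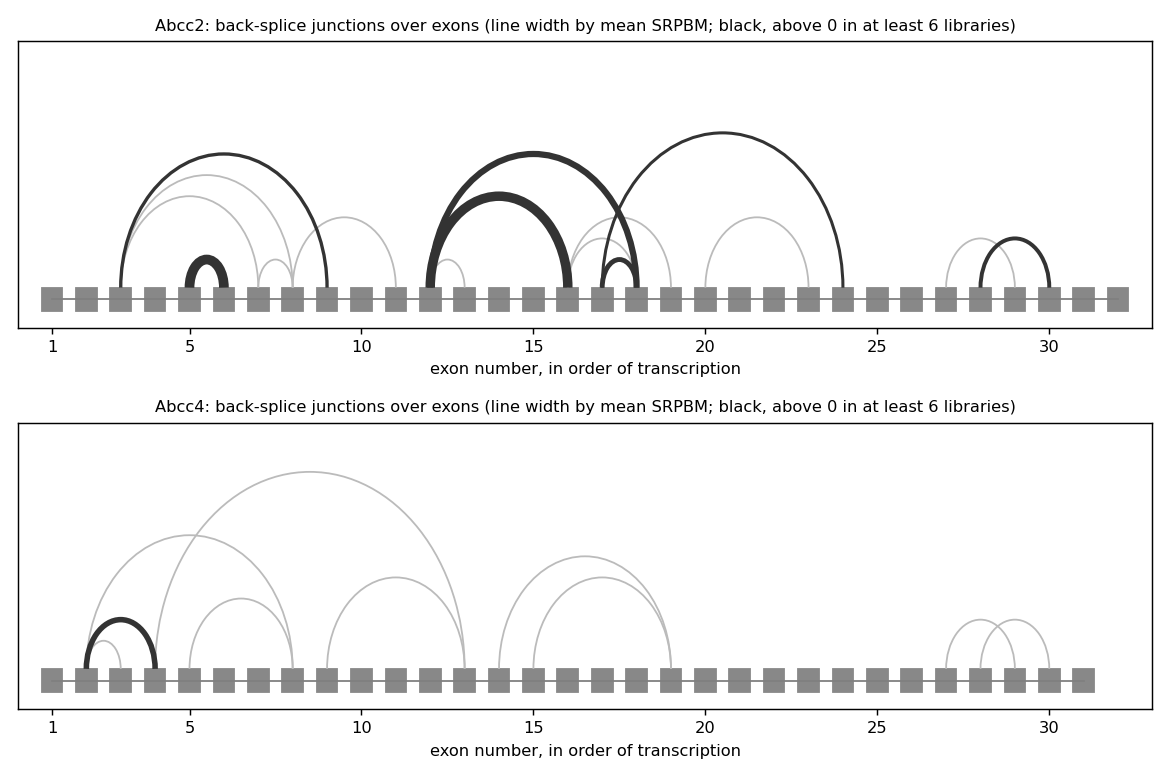
Back-splice junctions of Abcc2 and Abcc4 along the exons of their transcripts. The x axis gives the exon number and each arc joins the first and last exon of a circRNA. Black arcs were above 0 in at least 6 of 12 libraries, and their line width follows the mean SRPBM. Grey arcs, of the rarer junctions, have a fixed width. The 26 junctions with both ends on an exon boundary are drawn, and exon 12 of Abcc2 and exon 2 of Abcc4 open several arcs.

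Abcc2 ranked higher than Abcc4 among the circRNA hosts of these livers. Averaged over the 12 libraries, the Abcc2 sum ranked 15 of 4728 host genes and the Abcc4 sum 795. Of 20 ATP-binding cassette genes that had circRNAs, out of 43 searched, Abcc2 ranked 1 and Abcc4 ranked 7 by summed SRPBM. The Abcc2 circle of exons 5 to 6 ranked 28 of all 16445 circRNAs and 9 of the 4514 that span 2 exons. The circle of exons 12 to 16 ranked 39 and that of exons 12 to 18 ranked 575, while the Abcc4 circle of exons 2 to 4 ranked 962. The number of different junctions also placed both genes high, with 16 for Abcc2 and 11 for Abcc4 against a median of 2 per host gene. A circle has 1 back-splice junction whatever its length, but how SRPBM was computed is not given in the sources used. These ranks compare junction signals and not levels of mRNAs.

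The most abundant Abcc2 circle, of exons 5 to 6, stood at 97.3, 96.0, 99.7, 102, 89.1 and 111 SRPBM in PZH 1 to 6 and at 100.5, 86.9, 138, 123, 114 and 86.9 SRPBM in Control 1 to 6. The groups overlapped, and Control libraries spread more widely, with Control 3 highest. It averaged 99.2 ± 7.35 SRPBM in PZH livers and 108 ± 20.4 SRPBM in Control livers (SD, n = 6 each). The log2 difference between PZH and Control was -0.11 (SE 0.12, 95% interval -0.36 to 0.15), with a limma adjusted p of 0.876.

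The circle of exons 12 to 16 was nearly as abundant. It stood at 96.7, 102, 96.5, 102, 71.6 and 109 SRPBM in PZH 1 to 6 and at 75.4, 60.2, 85.4, 85.7, 85.6 and 84.6 SRPBM in Control 1 to 6. All PZH libraries other than PZH 5 lay above all Control libraries, while PZH 5 lay within the Control range. The means were 96.1 ± 12.8 SRPBM in PZH livers and 79.5 ± 10.2 SRPBM in Control livers (SD, n = 6 each). This is a log2 difference of 0.27 (SE 0.13). As this circle had been named for its difference, the SE is not to be read as a test.

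The circle of exons 12 to 18, which opens at the same exon start, stood at 12.02, 16.7, 13.2, 12.3, 9.35 and 15.1 SRPBM in PZH 1 to 6 and at 9.09, 6.19, 13.2, 7.13, 8.52 and 12.3 SRPBM in Control 1 to 6. The groups overlapped, with Control 3 and Control 6 inside the PZH range. It averaged 13.1 ± 2.56 SRPBM in PZH livers and 9.42 ± 2.81 SRPBM in Control livers (SD, n = 6 each), a log2 difference of 0.48 (SE 0.26) with a limma adjusted p of 0.686. Relative to the exons 12 to 16 circle, its level was 0.121 to 0.164 in PZH and 0.0832 to 0.155 in Control, with overlap. Across the 12 libraries, which share their scaling, the log2 values of the circles of exons 12 to 16 and 12 to 18 correlated at r = 0.80, or 0.85 within PZH and 0.61 within Control. Those of exons 5 to 6 and 12 to 16 correlated at r = 0.32 over all 12, but at 0.84 within PZH and 0.61 within Control (6 libraries each).

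The other tested Abcc2 circles were low. That of exons 17 to 18 stood at 1.70, 0, 8.11, 4.81, 2.48 and 4.72 SRPBM in PZH 1 to 6 and at 4.09, 2.62, 3.81, 4.99, 7.47 and 5.53 in Control 1 to 6. The highest and the lowest value both came from PZH, and the log2 difference was -0.67 (SE 0.57, adjusted p = 0.805 by limma). Without PZH 2, the library at 0, it was -0.20. That of exons 28 to 30 stood at 0, 1.98, 4.38, 5.67, 1.85 and 3.43 SRPBM in PZH 1 to 6 and at 0, 0, 2.24, 0, 0 and 4.38 in Control 1 to 6. Values above 0 came from 5 PZH and 2 Control libraries, and the log2 difference was 1.30 (SE 0.73, limma adjusted p = 0.686). That of exons 3 to 9 stood at 3.99, 0.662, 0, 0.931, 0 and 2.00 SRPBM in PZH 1 to 6 and at 0, 0, 0, 2.99, 0 and 1.94 in Control 1 to 6. The log2 difference was 0.45 (SE 0.63, limma adjusted p = 0.898). That of exons 17 to 24 stood at 0, 3.29, 0.644, 0, 1.85 and 0.666 SRPBM in PZH 1 to 6 and at 0, 0, 0.628, 0, 0 and 1.42 in Control 1 to 6. Both were listed at 0 in 2 PZH and 4 Control libraries, and for exons 17 to 24 the log2 difference was 0.66 (SE 0.53, limma adjusted p = 0.790).

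Summed over its 16 junctions, Abcc2 stood at 212, 220.4, 224, 233, 178 and 249 SRPBM in PZH 1 to 6 and at 189.8, 156, 244, 225, 216 and 197 in Control 1 to 6. Control 2 and PZH 5 were the lowest of their groups, and the groups overlapped. The sum averaged 219 ± 24.1 SRPBM in PZH livers and 205 ± 30.8 SRPBM in Control livers (SD, n = 6 each), with a log2 difference of 0.11 (SE 0.12, limma adjusted p = 0.826), and the circle named earlier is part of it. Within the sum the circles took unequal shares in the groups. The circle of exons 5 to 6 made up 45.4 ± 2.44% of it in PZH and 52.8 ± 4.50% in Control, and the circle of exons 12 to 16 made up 43.7 ± 2.10% in PZH livers and 39.0 ± 2.57% in Control livers (SD, n = 6 each).

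The level of the exons 12 to 16 circle divided by that of the exons 5 to 6 circle was 0.994, 1.06, 0.968, 0.997, 0.804 and 0.976 in PZH 1 to 6 and 0.750, 0.693, 0.620, 0.697, 0.751 and 0.974 in Control 1 to 6. The circles were close to equal in the PZH libraries other than PZH 5, and in all Control libraries other than Control 6 the exons 5 to 6 circle was ahead by a wider margin than in any PZH library. Control 6 lay within the PZH range. The mean log2 ratio, with the test's pseudocount of 0.636 added to each level, was 0.38 higher in PZH, and 0.46 higher without Control 6. A ratio within a library does not depend on its scaling, and it shows unequal levels of the circles without saying which of them differed. As the exons 12 to 16 circle had been named for its difference, no test is given.

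**Figure D2:**
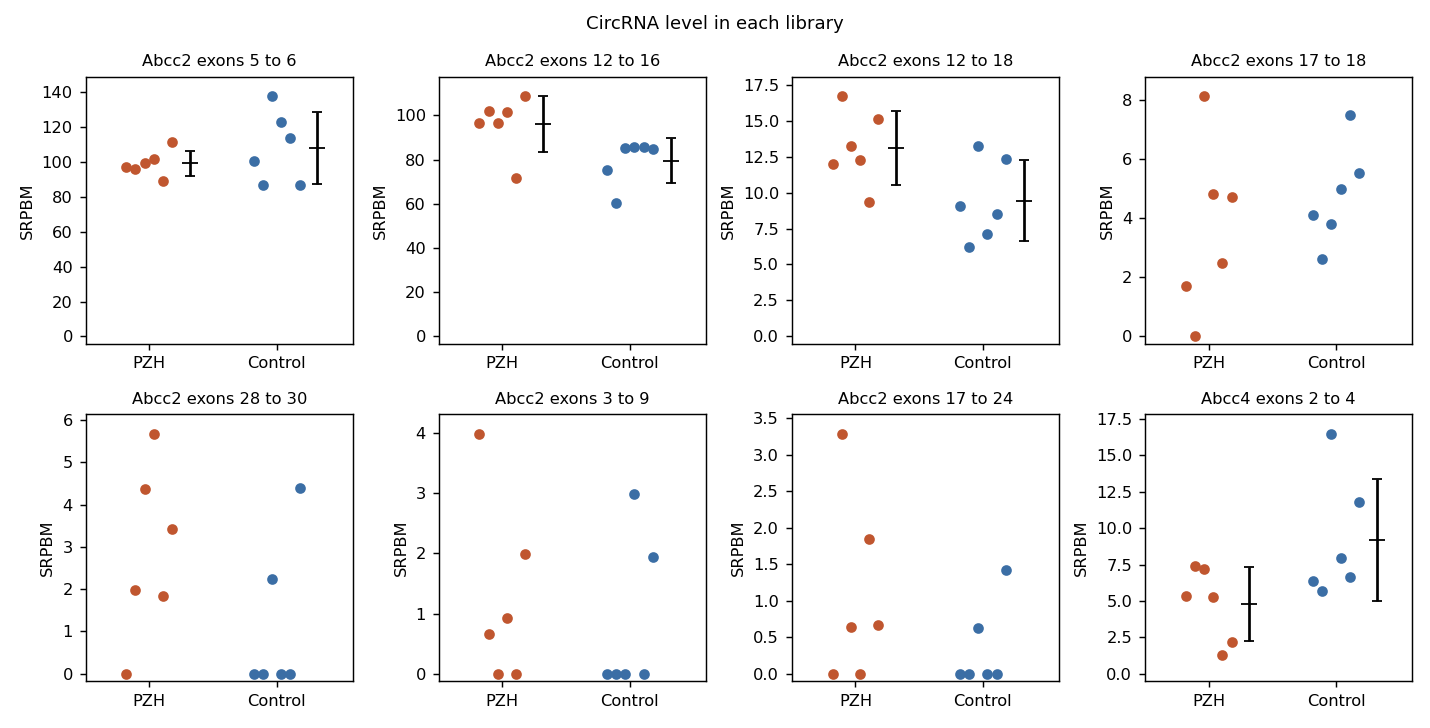
SRPBM (y axes) in each library of the 8 circRNAs above 0 in at least 6 libraries, PZH left of Control. Points are libraries and bars are mean ± SD of 6, drawn where no library is at 0, and in every panel the groups overlap.

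**Figure D3:**
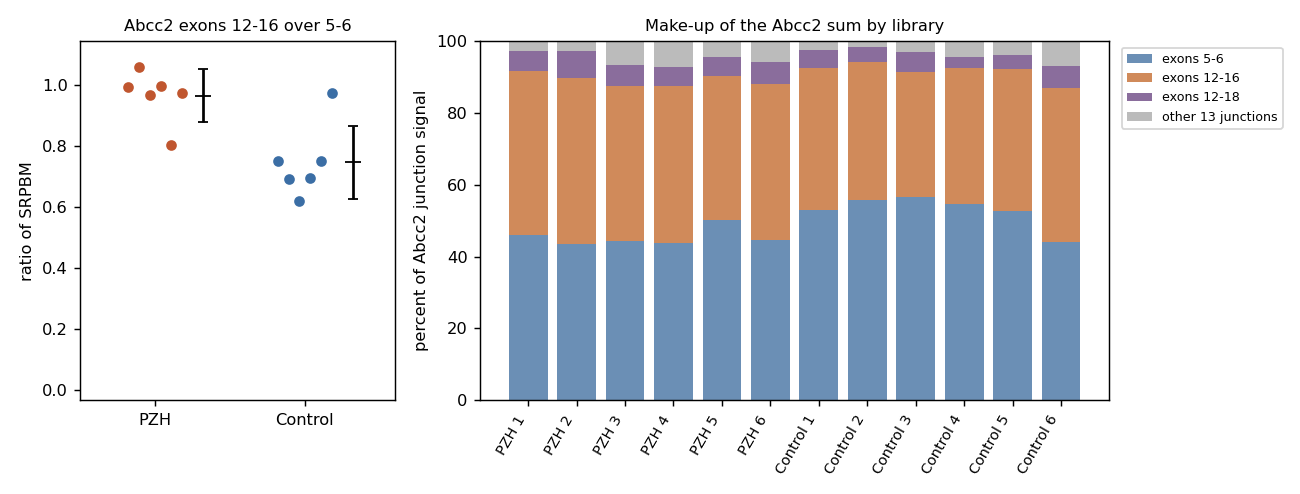
Left, ratio of the exons 12 to 16 to the exons 5 to 6 circle of Abcc2 per library, with mean ± SD of 6; right, percent of the Abcc2 sum taken by each circle in each library, PZH left of Control. The exons 5 to 6 circle takes 45.4 ± 2.44% in PZH and 52.8 ± 4.50% in Control, and Control 6 and PZH 5 stand apart from their groups.

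The Abcc4 values were lower in PZH than in Control. Its only tested circle, of exons 2 to 4, stood at 5.36, 7.37, 7.21, 5.27, 1.26 and 2.20 SRPBM in PZH 1 to 6 and at 6.38, 5.66, 16.5, 7.98, 6.68 and 11.8 SRPBM in Control 1 to 6. PZH 5 and PZH 6 were lowest and Control 3 highest, and the groups overlapped between 5.66 and 7.37 SRPBM. It averaged 4.78 ± 2.54 SRPBM in PZH livers and 9.16 ± 4.20 SRPBM in Control livers (SD, n = 6 each). The log2 difference of -0.94 (SE 0.42) did not pass the test over all circRNAs, with a limma adjusted p of 0.613. These values rest on 4.09 to 52.6 read-pair equivalents per library.

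Summed over its 11 junctions, Abcc4 stood at 5.36, 7.37, 7.21, 5.27, 3.11 and 2.20 SRPBM in PZH 1 to 6 and at 9.84, 14.5, 18.1, 11.01, 10.49 and 15.8 SRPBM in Control 1 to 6. Every PZH library lay below every Control library. The sum averaged 5.09 ± 2.10 SRPBM in PZH livers and 13.3 ± 3.32 SRPBM in Control livers (SD, n = 6 each), a log2 difference of -1.34 (SE 0.37, 95% interval -2.12 to -0.57). Over all host gene sums this did not pass, with a limma adjusted p of 0.263 (unadjusted p 0.00166), which ranked 12 of 2203. Of those 2203 sums, 7, or 0.318%, had all PZH libraries below all Control libraries. Another 12 had all PZH libraries above all Control libraries. As shares of all SRPBM, the same Abcc4 sums lay at 0.00536% to 0.0189% in PZH and 0.0275% to 0.0523% in Control. These shares restate the sums and are not a separate result.

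Part of the Abcc4 difference lay in junctions too rare to be tested one by one. Without the exons 2 to 4 circle, Abcc4 was listed at 0 in 5 PZH libraries and at 1.85 SRPBM in PZH 5, against 1.57 to 8.84 SRPBM in the Control libraries. The number of Abcc4 junctions above 0 was 1, 1, 1, 1, 4 and 1 in PZH 1 to 6 and 3, 4, 2, 3, 4 and 3 in Control 1 to 6. For Abcc2 it was 5, 6, 7, 10, 7 and 10 in PZH 1 to 6 and 5, 4, 7, 6, 5 and 7 in Control 1 to 6. Over all genes, 4439 to 5510 circRNAs were above 0 in a PZH library and 3735 to 5500 in a Control library. Such counts were not compared with those of other single genes.

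The hepatocyte markers' summed circRNA level, given above, had a median of 24.1 SRPBM in PZH and 29.7 in Control. Its members went both ways. The mean in PZH minus that in Control was -5.40 SRPBM for Cps1, -3.99 for Trf and -2.31 for Alb, and it was also negative for Hnf4a, Cyp2e1 and Pck1, which were near 0. It was 1.38 SRPBM for Tat, 0.724 for Apob, 0.583 for Fgb and 0.492 for Ass1. For Apob the medians went the other way, at 0 in PZH and 0.524 in Control, and the highest PZH library stood at 8.55 SRPBM. For Alb the highest Control library stood at 21.4 SRPBM, with medians of 5.41 in PZH and 6.97 in Control. The circRNA level of Reln, the only marker with a circRNA among the 10 of hepatic stellate cells, was 4.12 to 11.7 SRPBM in PZH and 0 to 3.32 in Control. Its groups did not overlap, and 12 of the 2203 host gene sums tested had all PZH libraries above all Control libraries. A single gene does not give the level of a cell type. The Abcc2 sums were 178 to 249 SRPBM in PZH and 156 to 244 in Control. The part of the marker values in the result of either gene was not tested. Macrophage markers, 4 of 8 with circRNAs, summed to 97.5 to 138 SRPBM in PZH and 87.8 to 128 in Control, and endothelial markers, 5 of 8 with circRNAs, to 2.39 to 10.7 in PZH and 1.99 to 11.2 in Control.

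**Figure D4:**
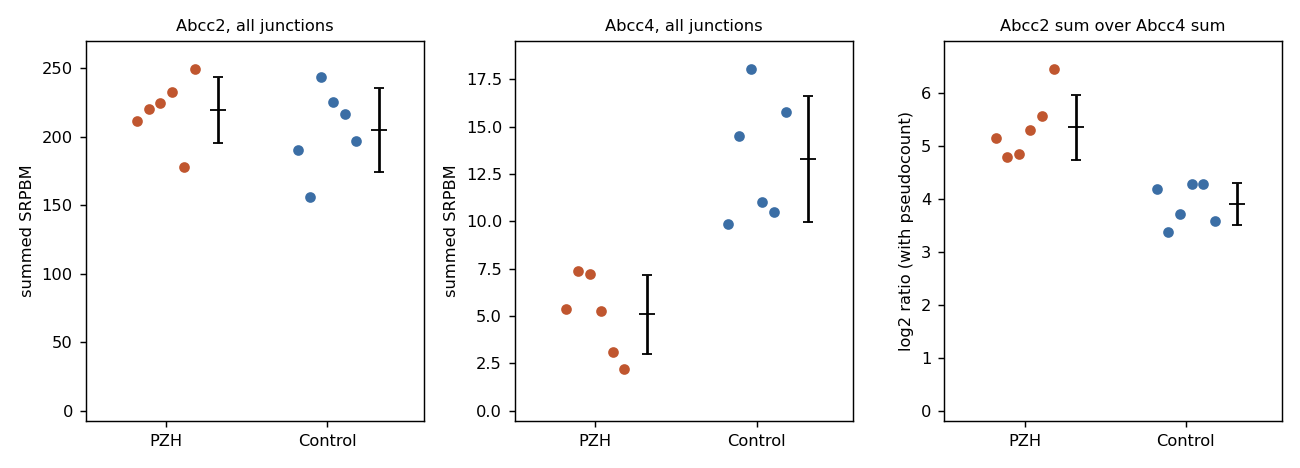
Summed SRPBM of all Abcc2 junctions (left) and of all Abcc4 junctions (middle), and the log2 ratio of these sums with the pseudocount added to each (right), per library with mean ± SD of 6, PZH left of Control. The Abcc4 sums lie at 2.20 to 7.37 SRPBM in PZH and at 9.84 to 18.1 in Control, while the Abcc2 sums overlap.

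Set against each other, the canalicular pump gene gave more circRNA than the basolateral one in every library. The Abcc2 sum was 29.9 to 113 times the Abcc4 sum in PZH, with a median of 41.8, and 10.8 to 20.6 times in Control, with a median of 16.4. The highest ratio, in PZH 6, stands on the lowest Abcc4 sum. The mean log2 ratio, with the pseudocount added to each sum, was 1.45 higher in PZH, and of the summed levels behind it only that of Abcc4 was without overlap between the groups.

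Without the exons 12 to 16 circle of Abcc2, 7 circles had a test. None of the 7 passed the adjusted threshold of 0.05, which 0.0517% of the 3870 circRNAs tested did. At an unadjusted p under 0.05 there was 1 of 7, that of exons 2 to 4 of Abcc4, against 7.55% of all tested. That count was 0 without PZH 5 or PZH 6. Without PZH 1 it was 2, exons 2 to 4 of Abcc4 and exons 28 to 30 of Abcc2. Without Control 3 it was also 2, but these were exons 12 to 18 and 28 to 30 of Abcc2. Without Control 6 it was exons 28 to 30 of Abcc2 that made it up. Exons 2 to 4 of Abcc4 thus dropped out without PZH 5, PZH 6, Control 3 or Control 6. None of the 7 had groups without overlap, against 0.672% of all tested. Neither gene sum passed the adjusted threshold, and 0% of all 2203 sums did. At an unadjusted p under 0.05 there was the Abcc4 sum, against 8.22% of all sums.

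**Figure D5:**
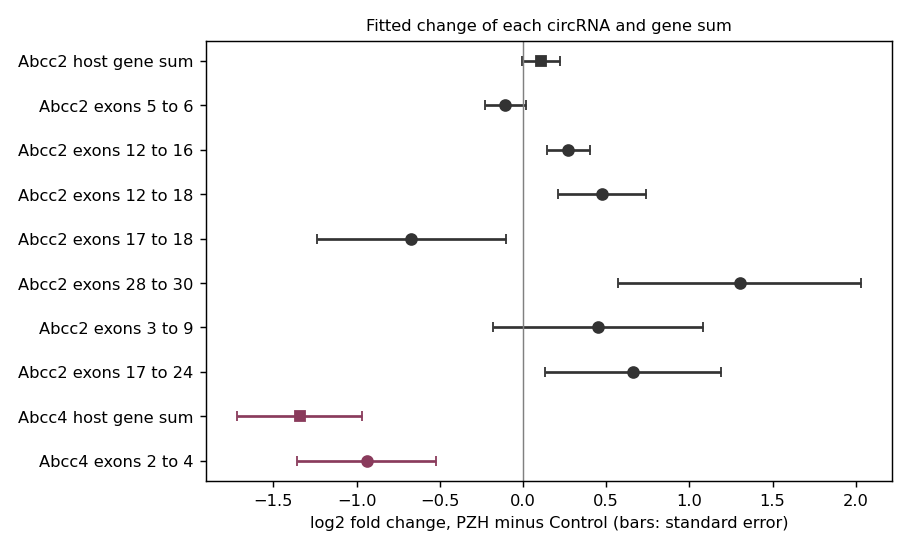
Log2 differences between PZH and Control of the 8 circRNAs in the fit and of the gene sums, with bars of 1 SE from limma. The Abcc4 sum lies at -1.34 and the Abcc2 sum at 0.11, and neither passed the adjusted threshold.

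The remaining 19 junctions were above 0 in fewer than 6 libraries, 12 of them in a single library, and none exceeded 3.30 SRPBM or 9.17 read-pair equivalents. The 9 of Abcc2 gave 9 entries above 0 in PZH and 4 in Control, and 6 of them were seen in PZH alone and 1 in Control alone. Its highest were exons 7 to 8 with 2.49 SRPBM, exons 8 to 11 with 1.63, exons 3 to 8 with 1.59 and exons 3 to 7 with 1.54. The 10 of Abcc4 gave 3 entries in PZH and 13 in Control, and 2 were seen in PZH alone and 7 in Control alone. Its highest were exons 2 to 3 with 3.30 SRPBM, above 0 in 3 Control libraries, and exons 2 to 8 with 3.24, above 0 in 2 Control libraries. Then came exons 5 to 8 with 2.30, the junction with a single annotated end with 2.19, exons 27 to 29 with 1.78 and exons 14 to 19 with 1.57. These splits between the groups were not compared with those of the rare junctions of other genes, so they are counts only. At so few reads, being listed at 0 does not show that a circle was missing from a liver.

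Genes that work beside these pumps gave shares of small p-values and of positive differences close to those of the whole table. Lists of canalicular and basolateral pumps, uptake transporters, other ATP-binding cassette genes, regulators, anchoring proteins, bile acid synthesis and conjugation held 132 genes, of which 22 had 54 tested circRNAs. None passed the adjusted threshold, and 2 were higher and 2 lower in PZH at an unadjusted p under 0.05, which is 7.41% against 7.55% of all circRNAs tested. Positive differences were found for 32 of 54, or 59.3%, against 54.3% of all tested, and counts of positive differences in a single list are to be read against that share. The lists' median log2 difference was 0.14, against 0.06 over all circRNAs tested.

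Among transporters, the bile salt export pump gene Abcb11, which shares the canalicular membrane with Abcc2, had 2 tested circRNAs, with log2 differences of -0.15 and -0.89 (limma adjusted p = 0.974 and 0.765). The more abundant of them ranged over 0 to 14.0 SRPBM in PZH and 3.47 to 8.97 in Control, with 1 PZH library at 0. The leading circle of Abca1, a basolateral cholesterol and phospholipid exporter, averaged 27.5 ± 4.60 SRPBM in PZH livers and 24.6 ± 5.91 SRPBM in Control livers (SD, n = 6 each). Of the 5 circRNAs of uptake transporters, 4 were positive. The most abundant, of the organic anion transporter gene Slco1b2, averaged 15.99 ± 4.90 SRPBM in PZH livers and 15.3 ± 4.41 SRPBM in Control livers, and another of that gene had 5.34 to 14.7 SRPBM in PZH and 0 to 9.45 in Control (limma adjusted p = 0.566). The leading circle of Abcd3, a peroxisomal fatty acid transporter, averaged 19.3 ± 6.51 SRPBM in PZH livers and 26.5 ± 5.98 SRPBM in Control livers (SD, n = 6 each), and a rarer one was above 0 in 5 PZH libraries and 1 Control library (limma adjusted p = 0.601).

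Among regulators, the leading circle of Nr1h4, which encodes the bile acid receptor FXR, averaged 116 ± 15.6 SRPBM in PZH livers and 109 ± 23.6 SRPBM in Control livers (SD, n = 6 each), while a rarer one had values above 0 in 6 PZH and 5 Control libraries. Of the anchoring and trafficking list, 5 of 6 circRNAs were positive, and that of the motor protein gene Myo5b averaged 13.5 ± 2.14 SRPBM in PZH livers and 10.6 ± 4.24 SRPBM in Control livers. In bile acid synthesis 9 of 14 were positive, while the leading one, of Scp2, had a log2 difference of -0.42 (SE 0.17, limma adjusted p = 0.566). The conjugation list had 3 positive and 3 negative. Its leading circle, of Gclc, the catalytic subunit of the enzyme that makes the precursor of glutathione, averaged 31.5 ± 6.57 SRPBM in PZH livers and 46.1 ± 9.65 SRPBM in Control livers (SD, n = 6 each). The Gclc groups did not overlap, at 20.6 to 37.6 SRPBM in PZH and 39.2 to 64.5 in Control, yet the limma adjusted p was 0.454. Of all circRNAs tested, 0.672% had groups without overlap, and this circle was named for its mean and its p.

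The circRNAs whose log2 levels followed those of the leading circles most closely were sought among circRNAs above 0 in all 12 libraries, 1 per other host gene, as a description over libraries that share their scaling. For the Abcc2 circle of exons 5 to 6 they came from Picalm (r = 0.85), Uox (r = 0.85) and Utp11 (r = 0.82), the closest of 1086. For the Abcc4 circle of exons 2 to 4 they came from Hmbox1 (r = 0.89), Otulin (r = 0.84) and Hdgfl3 (r = 0.81), the closest of 1088. For Hdgfl3 the rank correlation was lower, at 0.48.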

How the data were processed

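Back-spliced RNA was measured in 12 mouse livers, 6 PZH and 6 Control, as 1 deposited table. Trizol extraction, TruSeq RNA libraries and Illumina sequencing were used, per the labels' protocols. The authors deposited a signal per junction, in SRPBM. Per the submitters' processing notes, Trim Galore and STAR were used with GRCm38 (mm10). Not given in the sources used here are the versions, the circRNA caller, its filters and how SRPBM was computed. Calling filters can set low junctions to 0, which affects the rare junctions most.

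Host genes, exon numbers and sequences were assigned here from GENCODE M21. Both ends lay on boundaries of the host for 15737 of 16445, 1 end for 628 and none for 80, and 144 had several possible hosts. The signal is not a count, so no count model was used. The test was limma 3.58.1 (R 4.3.3, variance trend fitted) on log2(SRPBM + 0.636) of every circRNA with values above 0 in 6 or more of the 12 libraries. The added 0.636 is the median over libraries of the smallest value above 0. Tests were 2-sided, with Benjamini-Hochberg adjustment over all circRNAs tested and a threshold of 0.05, and sums over each host gene were tested alike. Log2 differences are on this scale, which understates those of low circRNAs. The script was tested on simulated data. Tables and plots used Python 3.11.15, numpy 2.4.6, pandas 2.3.3, scipy 1.17.1 and matplotlib 3.10.9.

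The labels describe separate mice, and each library was taken as 1 replicate. Members, gene lists and tests were chosen with earlier results of these data known. Junctions above 0 in at least 6 libraries are given in full. The others are given by range, naming those whose highest value reached the median of such values, 1.54 SRPBM. Per gene list the circRNA with the highest mean and the one with the smallest p are named. Alternatives were other pseudocounts, filters and scalings, no variance trend, a replicate block and leaving out each library.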

Additional observations from a re-analysis of the deposited data

Results flagged for a closer look

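In 9 of 44 groups of 6 libraries, 1 library stood far from the rest, its gap to the nearest other library exceeding Dixon's 95% critical share of the range of the group. Chance gives this in about 1 in 20 groups, and several of the 9 share the same values.

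PZH 5 stood apart most often. Its exons 12 to 16 circle of Abcc2, at 71.6 SRPBM against 96.5 to 109 in the other PZH libraries, had a gap of 0.6732 of the range. Its ratio of that circle to exons 5 to 6 was 0.804 (gap 0.6409), and its share of the Abcc2 sum in exons 5 to 6 was 50.1% (gap 0.6363). It had 4 Abcc4 junctions above 0 where each other PZH library had 1 (gap 1), so that exons 2 to 4 made up 40.5% of its Abcc4 sum and 100% in the others (gap 1).

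Control 6 stood apart in the balance of the Abcc2 circles, with a ratio of exons 12 to 16 to exons 5 to 6 of 0.974 (gap 0.6303) and 44.1% of the sum in exons 5 to 6 (gap 0.6954). PZH 6 had an Abcc2 sum 113 times its Abcc4 sum (gap 0.6715). PZH 2 had 7.57% of its Abcc2 sum in exons 12 to 18, against 5.26% to 6.05% in the other PZH libraries (gap 0.6564).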

How the results depend on the processing

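All 184 of 184 values of the tested circles and gene sums under an alternative setting kept their direction, those of the exons 12 to 16 circle included. The filters, the missing variance trend and the replicate block cannot change these log2 differences, so agreement there was fixed beforehand. None of the circles and sums with a test given passed the adjusted threshold in any setting. The Abcc2 circles of exons 3 to 9 and 17 to 24 were above 0 in only 6 libraries. They left the fit when any of those 6 was left out, so their direction without such a library is not among these values. The log2 difference of the Abcc4 sum ranged from -1.46 to -1.16 (limma adjusted p 0.109 to 0.586), and that of the Abcc2 sum from 0.03 to 0.17. The difference in the log2 ratio of exons 12 to 16 to exons 5 to 6 ranged from 0.33 to 0.46 when a library was left out, an alternative chosen after the data were seen. Counts over the whole table moved more. The 2 circRNAs passing became 11 when those above 0 in at least 2 libraries were tested, 10 when those above 0 in all were tested, 1 with a replicate block, and 1 to 3 when a library was left out: 1 without PZH 2, PZH 4, PZH 6 or any of Control 2 to 6, and 3 without PZH 5. The 0 host gene sums passing became 3 and 1 under those filters, 1 with median-of-ratios scaling, 1 with summed SRPBM scaling, 2 with the replicate block, and 0 to 3 when a library was left out: 1 without PZH 3 or Control 6, and 3 without PZH 5. The cause was not tested. Replicate numbers shared by the groups did not pair the libraries, as judged on circRNAs above 0 in all libraries. Deviations of same-numbered libraries correlated at -0.122 to 0.0299, and 0 of 6 PZH libraries correlated best with their own number. Of the low circles that stayed in the fit whichever library was left out, exons 17 to 18 moved most, from -0.96 to -0.20. The rare junctions reach at most 9.17 read-pair equivalents, so depth limits them.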
